A study of Mus musculus with 15 samples.

Results

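Cyclin-dependent kinase (CDK) inhibitors and the p53 axis were followed mouse by mouse in dystrophic muscle and heart. The set was named by gene symbol and held 9 of the 56980 genes in the expression table. It comprised the 3 CIP/KIP inhibitors Cdkn1a, Cdkn1b and Cdkn1c, the 4 INK4 inhibitors Cdkn2a, Cdkn2b, Cdkn2c and Cdkn2d, the p53 gene Trp53 and its ligase Mdm2. Bulk RNA-seq had been made from whole, snap-frozen tissue of 15 DBA/2J-mdx mice, a dystrophin-deficient strain used as a model of Duchenne muscular dystrophy, and every control mouse carried the same dystrophic genotype. The tibialis anterior (TA), a fast hindlimb muscle, came from 4 mice given dasatinib plus quercetin (D+Q) and 4 given vehicle, in 2 doses per week for 2 months from the age of 3 months, with collection at 5 months. The heart came from other mice, 3 given D+Q and 4 given vehicle for 4 months from the age of 12 months, with collection at 16 months. Dasatinib is a tyrosine kinase inhibitor and quercetin a plant flavonoid, given together as a senolytic, a treatment meant to remove senescent cells. All 4 D+Q TA muscles were from males, whereas the other 3 groups mixed both sexes by label. Because the mice of the 2 tissues differed in age and in length of treatment, tissue, age and treatment length cannot be told apart.

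CDK inhibitors are small proteins that hold back the cell cycle. Members of the CIP/KIP family bind cyclin and CDK complexes broadly, whereas INK4 proteins bind CDK4 and CDK6, keep the retinoblastoma protein in its growth-suppressing form and so restrain E2F transcription factors. p53 activates Cdkn1a and Mdm2 after DNA damage and other stresses, and the MDM2 protein in turn marks p53 for degradation. In muscle, Cdkn1a and Cdkn1c also accompany the exit of myoblasts from the cell cycle, and p16Ink4a and p21Cip1 are the inhibitors most often read as marks of senescence.

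The Cdkn2a locus needs its sequences to be read correctly, because it makes 2 unrelated proteins. On GRCm39 the gene spans chr4:89192708-89212890 on the minus strand, with 2 annotated GENCODE M39 transcripts that share exon 2 and start in different first exons. Cdkn2a-201 encodes p16Ink4a, and Cdkn2a-202 encodes p19Arf, which binds MDM2 and so frees p53. The expression table had a single Cdkn2a row, so the 2 products are summed in every value given here. The RT-qPCR primers that the study used for its 2 markers called p16 and p19 show where the products part, and are printed 5′ to 3′ in lower case.
p16 forward: catctggagcagcatggagtc
p16 reverse: gggtacgaccgaaagagttcg
p19 forward: gccgcaccggaatcct
p19 reverse: ttgagcagaagagctgctacgt
The p16 pair matched exactly in exon 1 of Cdkn2a-201, at chr4:89200341-89200361 and chr4:89200231-89200251, with a product of 131 bases. The p19 pair carries the gene name Cdkn2d in the primer list. Its forward primer matched exon 1 of Cdkn2a-202 at chr4:89212578-89212593 and its reverse primer matched the shared exon 2 at chr4:89195179-89195200, with a product of 67 bases. No GENCODE M39 transcript of Cdkn2d held either primer without a mismatch, and Cdkn2a-202 was the single transcript of any gene with both. The name p19 is used for the product of Cdkn2a-202, p19Arf, and also for that of Cdkn2d, p19Ink4d. The Cdkn2d values below therefore refer to p19Ink4d transcripts, at chr9:21199700-21202727, and the transcript that the p19 primers match is part of the Cdkn2a value.

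The p53 response element was searched in 9 windows that ran from 3000 bases before to 1000 bases after the annotated start of each gene. The motif is the p53 response element consensus, made of 2 decamers with a spacer of up to 13 bases, and it is its own reverse complement, so a match on one strand is a match on both. Without a mismatch it was found in 1 of the 9 windows, that of Cdkn1a, beside 1.11% of the 21757 windows of all protein-coding genes. With up to 1 mismatch allowed outside the cores of the decamers, Cdkn1a again was the 1 window of 9, beside 8.06% of all windows. The stretch is shown because Cdkn1a is the gene on which the heart comparison turns, and capitals mark the 3 decamers.
Cdkn1a chr17:29309870-29309931, GRCm39, plus strand: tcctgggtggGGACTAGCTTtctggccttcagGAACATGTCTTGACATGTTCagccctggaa
The last 2 decamers touch and form the match with 1 mismatch, from 34 to 15 bases before the annotated gene start, and the first and second form the match without mismatch. Of the 11 annotated Cdkn1a transcripts, the one named Cdkn1a-201 starts 2802 bases further downstream. A match describes letters in a window, and binding of p53 was not measured here. Windows without a match, among them that of Mdm2, could still hold an element with more mismatches or a changed core. The other members lie at chr6:134897364-134902476 (Cdkn1b), chr7:143012069-143014806 (Cdkn1c), chr4:89223204-89229276 (Cdkn2b, next to Cdkn2a), chr4:109517957-109524386 (Cdkn2c), chr11:69469669-69482701 (Trp53) and chr10:117524780-117546730 (Mdm2), and Cdkn1a itself spans chr17:29309936-29319701.

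Libraries were alike within groups, and a few facts touch the results. Expression was deposited as TPM, transcript abundance scaled to a fixed total per mouse and corrected for transcript length. It allows levels of different genes to be set side by side and keeps no read depth. Between 21830 and 25378 genes had a value above 0 in a mouse, and log2 expression correlated at 0.977 to 0.991 between mice of a group, across genes. Muscle markers followed the tissue labels. The summed level of 5 cardiomyocyte genes was 20500 to 27000 TPM in hearts and 56.1 to 138 TPM in TA. D+Q heart 2 held traces of fast skeletal transcripts, with Myh4 at 10.2 TPM against at most 0.33 TPM in the other hearts. Sex-linked transcripts matched the labelled sex in 14 of 15 mice, and the exception, D+Q heart 3, was labelled male. By these transcripts all 3 D+Q hearts were female, whereas the vehicle hearts mixed both sexes. Sex and treatment therefore partly went together in heart, and a fit with labelled sex does not take this into account. By label they also partly went together in TA, where all D+Q muscles were from males and vehicle muscles from both sexes. The TA fit held no term for sex. In whole tissue, fewer cells of a type and less RNA per cell cannot be told apart.

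Which genes could be measured was set by a minimum of 0.5 TPM, reached by 3 or more mice of the tissue. All 9 genes passed in TA, where every mouse was above 0.5 TPM for every gene. In heart 8 of 9 passed, and Cdkn2a was below 0.5 TPM in all 7 mice. Cdkn1a ranked first in both TA groups, with a mean ± SD of 59.1 ± 5.6 TPM in vehicle (n = 4) and 79.6 ± 36.5 TPM in D+Q (n = 4). Mdm2 followed at 31.9 TPM in vehicle TA, then Cdkn1b at 24.6 TPM and Cdkn1c at 19.8 TPM, and these 3 neighbours overlapped between mice. Trp53 at 12.4 TPM stood apart from the genes on either side. The 4 INK4 genes closed the order, from Cdkn2d at 4.8 TPM down to Cdkn2b at 1.87 TPM, each overlapping its neighbour. In vehicle hearts the order began with Mdm2 at 23.4 TPM and Cdkn1b at 18.8 TPM, and Cdkn1a came behind Cdkn1c at 11 TPM, overlapping Cdkn1c and Trp53. In D+Q hearts Cdkn1a came second at 24.5 TPM, overlapping Mdm2 at 24.6 TPM and above Cdkn1b at 19.2 TPM in every mouse.

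**Figure D1:**
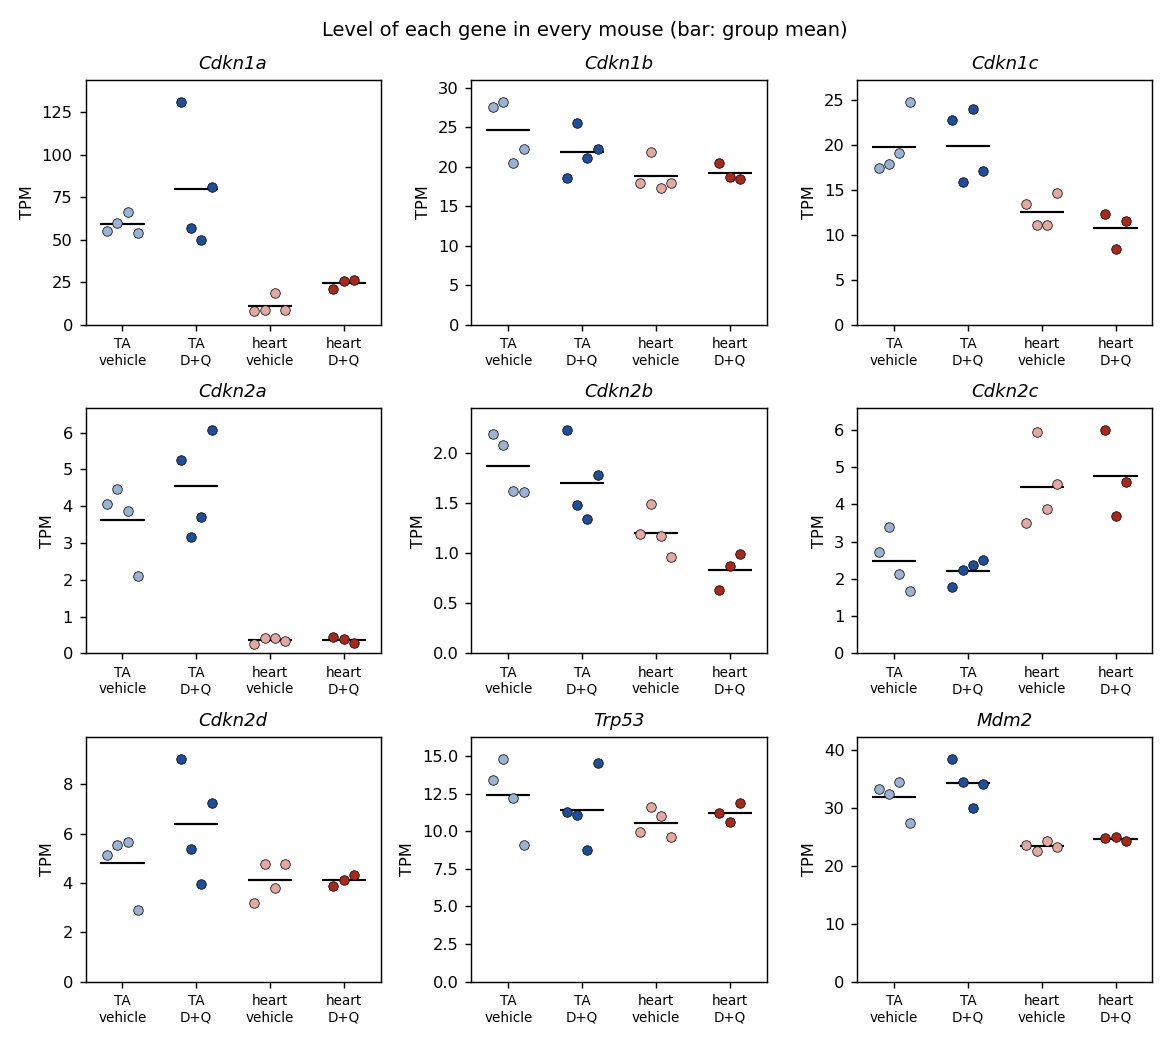
Level of the 9 genes in every mouse, in TPM on linear axes that start at 0, for vehicle and D+Q mice of TA and heart. Points are mice and bars are group means. Cdkn1a lay at 21.3 to 26.1 TPM in D+Q hearts and 8.13 to 18.5 TPM in vehicle hearts, while Cdkn2a stayed below 0.5 TPM in all hearts.

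The effect of D+Q in TA was asked first, because the treatment is meant to lower the number of cells that carry these inhibitors. Cdkn1a, which encodes p21Cip1 and is the main p53-activated inhibitor, was at 131, 57.2, 49.6 and 81 TPM in D+Q TA muscles 1 to 4. It was at 55.4, 60, 66.6 and 54.2 TPM in vehicle TA muscles 1 to 4. The ranges overlapped, with the 2 highest values and the lowest value all in D+Q mice. After adjustment for 1 surrogate variable, the log2 fold change of TPM + 0.5 was 0.13 with an SE of 0.13, and limma's adjusted p was 0.999. Without that variable it was 0.33, still with an adjusted p of 0.999.

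The 2 D+Q muscles with most Cdkn1a were also the highest for 2 INK4 genes. Cdkn2a, the p16Ink4a and p19Arf gene, was at 5.26, 3.16, 3.72 and 6.06 TPM in D+Q TA muscles 1 to 4 and at 4.05, 4.48, 3.86 and 2.11 TPM in vehicle. Cdkn2d, which encodes p19Ink4d, was at 9.03, 5.39, 3.97 and 7.24 TPM in D+Q and at 5.12, 5.53, 5.67 and 2.89 TPM in vehicle. For both genes D+Q muscles 1 and 4 stood above all vehicle muscles while muscles 2 and 3 lay within their range. The log2 fold changes were 0.18 for Cdkn2a and 0.18 for Cdkn2d, each with an adjusted p of 0.999. The same 2 muscles held 142 and 77.6 TPM of Gadd45a, a stress gene that p53 can activate, against 18.2 to 63.1 TPM in the other 6. They held 109 and 23.1 TPM of Myc, a growth-promoting factor that represses Cdkn1a and Cdkn2b, and 2980 and 1730 TPM of the metallothionein Mt1. Vehicle muscle 3, the vehicle mouse with most Cdkn1a, had 63.1 TPM of Gadd45a, 40.3 TPM of Myc and 1690 TPM of Mt1. The surrogate variable took its highest values, 0.703, 0.295 and 0.228, in these 3 muscles. Its part in the members' values was not tested.

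The other members did not separate the TA groups. Cdkn1b, which encodes p27Kip1 and is controlled largely by protein turnover, ran from 18.6 to 25.5 TPM in D+Q and from 20.5 to 28.2 TPM in vehicle. Cdkn1c, the imprinted gene of p57Kip2, ran from 15.9 to 24 TPM and from 17.4 to 24.8 TPM. Cdkn2b, the p15Ink4b gene that responds to TGF-beta, ran from 1.34 to 2.23 TPM and from 1.61 to 2.19 TPM. Cdkn2c, the p18Ink4c gene induced during myogenic differentiation, ran from 1.77 to 2.51 TPM and from 1.68 to 3.4 TPM. Each of these 4 inhibitors overlapped almost completely between treated and control muscles. Trp53 was at 8.72 to 14.5 TPM in D+Q and at 9.11 to 14.8 TPM in vehicle, and Mdm2 at 30 to 38.4 TPM and at 27.4 to 34.5 TPM. Over all 9 genes the log2 fold changes lay between -0.17 and 0.18 with a median of 0.01, beside a median of -0.07 over all 16298 genes tested. The widest confidence interval, for Cdkn2a, ran from -0.34 to 0.7. These intervals take the surrogate variable as known, although it was estimated from the same mice, so they understate the uncertainty. limma called 0 of the 9 genes, beside 0% of all genes tested in TA, where 488 genes (2.99%) and 0 of the 9 had an unadjusted p under 0.05. The study itself fitted counts with DESeq2 and reported changed genes in TA at the same thresholds. The 0% therefore describes this fit of TPM.

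In heart, Cdkn1a gave the largest treatment difference among the members. It was at 21.3, 26 and 26.1 TPM in D+Q hearts 1 to 3. It was at 8.13, 8.66, 18.5 and 8.66 TPM in vehicle hearts 1 to 4. Every D+Q heart was above every vehicle heart, and vehicle heart 3 stood well above the other 3 vehicle hearts. The mean was 24.5 ± 2.79 TPM in D+Q (SD, n = 3) and 11 ± 4.99 TPM in vehicle (SD, n = 4), a ratio of 2.23. The log2 fold change was 1.15 with an SE of 0.26 and a 95% confidence interval of 0.53 to 1.77, in a limma fit with labelled sex. The unadjusted p was 0.00306 and the adjusted p over 16132 genes was 0.112, so Cdkn1a was not called. limma called 0.316% of all genes tested in heart. Complete separation of the 2 groups, as for Cdkn1a, occurred in 15.2% of them. The study, which fitted counts with DESeq2, reported more changed genes in heart at the same thresholds. The 0.316% and the missing call of Cdkn1a therefore describe this fit of TPM. Without vehicle heart 3 the log2 fold change was 1.49 with an adjusted p of 0.023, and Cdkn1a was then called. With sex read from the expression of sex-linked genes it was 0.92 with an adjusted p of 0.245. Leaving out each of the 7 hearts in turn gave 0.87 to 1.49.

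The other members differed less than Cdkn1a between the heart groups. Cdkn2b was at 0.636, 0.87 and 0.996 TPM in D+Q and at 1.19, 1.49, 1.17 and 0.966 TPM in vehicle, with a log2 fold change of -0.36 and an adjusted p of 0.344. Its highest D+Q value lay just above its lowest vehicle value. Cdkn1c was at 8.39 to 12.3 TPM in D+Q and at 11.1 to 14.7 TPM in vehicle, with a log2 fold change of -0.18 and an adjusted p of 0.513. Cdkn1b was at 18.5 to 20.5 TPM and at 17.3 to 21.9 TPM, Cdkn2c at 3.7 to 5.99 TPM and at 3.51 to 5.94 TPM, and Cdkn2d at 3.9 to 4.31 TPM and at 3.21 to 4.77 TPM. For these 3 genes the treated hearts lay largely inside the vehicle range, with log2 fold changes of 0.02, 0.06 and 0.01. Trp53 was at 11.2, 10.6 and 11.9 TPM in D+Q hearts and at 9.95, 11.6, 11 and 9.63 TPM in vehicle hearts. Mdm2 was at 24.8, 24.9 and 24.2 TPM in D+Q hearts and at 23.6, 22.6, 24.2 and 23.3 TPM in vehicle hearts. The highest vehicle heart for Mdm2 was number 3, as for Cdkn1a, and the D+Q hearts lay at about its level or just above. Trp53 and Mdm2 each had a log2 fold change of 0.07, with 95% confidence intervals of -0.14 to 0.29 for Trp53 and -0.07 to 0.21 for Mdm2. Cdkn2a was at 0.445, 0.378 and 0.278 TPM in D+Q hearts and at 0.256, 0.424, 0.42 and 0.337 TPM in vehicle hearts, too low to enter the fit. Without the filter on low values its log2 fold change was -0.02 with an adjusted p of 0.932, in a limma fit that called 0 of 30262 genes. All these Cdkn2a values were below the 0.5 TPM added before the log, which presses the fold change toward 0. That fit therefore cannot show whether Cdkn2a differed between the heart groups. None of the 8 tested members was called in heart, and 1, Cdkn1a, had an unadjusted p under 0.05, beside 2846 of 16132 genes (17.6%).

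**Figure D2:**
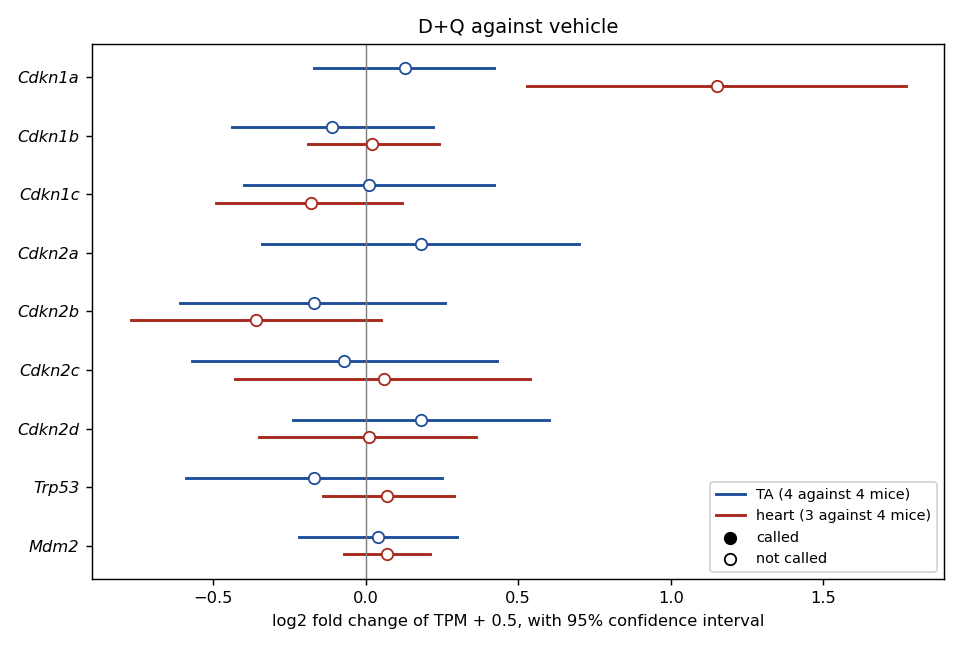
Log2 fold change of TPM + 0.5 between D+Q and vehicle mice with its 95% confidence interval for each gene, in TA (blue) and heart (red); open points are genes that were not called and Cdkn2a has no heart value. The heart interval of Cdkn1a, 0.53 to 1.77, lies above 0, and the TA intervals of all 9 genes include 0.

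Whether the treatment contrast of a gene differed between the tissues was tested with an interaction term over all 15 mice. For Cdkn1a the heart contrast was larger by 0.87 on the log2 scale, with an SE of 0.41, an unadjusted p of 0.0482 and an adjusted p of 0.892. The other 8 members had differences between -0.35 and 0.2. Among them Cdkn2a, at -0.28, entered this fit only through TA, and its heart values were below the 0.5 TPM added before the log. Its value therefore says little about heart, and Cdkn2a is left out of the counts. None of the 8 members other than Cdkn2a was called, beside 0.0628% of the 17516 genes tested. Of these 8 members 1, Cdkn1a, had an unadjusted p under 0.05, beside 5.56%.

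The composition of the inhibitor pool moved with Cdkn1a. The 7 inhibitor genes summed to 47.7 to 56.2 TPM in vehicle hearts and 62.2 to 66.4 TPM in D+Q hearts. Without Cdkn1a the other 6 summed to 37.7 to 45.5 TPM and 36.2 to 43.8 TPM, which overlap. Cdkn1a made up 20.6 ± 8.16% of the sum in vehicle hearts (SD, n = 4) and 38 ± 4.73% in D+Q hearts (SD, n = 3). The highest vehicle heart, number 3, reached 32.9%, and the lowest D+Q heart had 32.7%. In TA, Cdkn1a made up 50.7 ± 3.37% in vehicle (SD, n = 4) and 56.4 ± 9.51% in D+Q (SD, n = 4). Because the shares contain the Cdkn1a level, they describe that level a second way and were not tested.

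**Figure D3:**
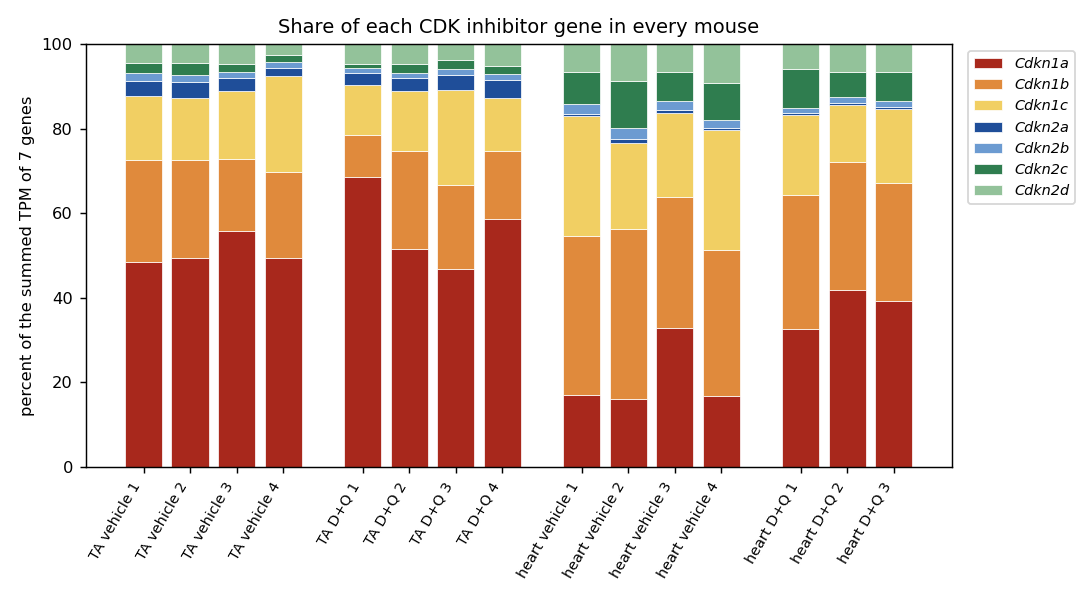
Share of each CDK inhibitor gene in the summed TPM of the 7 genes, 1 stacked bar per mouse on an axis from 0 to 100%. Cdkn1a made up between 46.7 and 68.6% in TA, 32.7 to 41.9% in D+Q hearts and 16 to 32.9% in vehicle hearts.

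Target genes of p53 were read beside Cdkn1a, from a list of 24 of which 22 could be tested in each tissue. In heart limma called none of them, 7 had an unadjusted p under 0.05 beside 17.6% of all genes, and the median log2 fold change was -0.07 beside 0 over all genes tested. Ccng1, which encodes cyclin G1, was at 253 to 280 TPM in D+Q hearts and 240 to 280 TPM in vehicle hearts. Bax, the pore-forming death gene, was at 13.3 to 16.2 TPM and 12.1 to 15.5 TPM. Ei24 and Tigar had the highest log2 fold changes of the list, 0.25 each, with every D+Q heart above every vehicle heart and an adjusted p of 0.144 for both. Btg2, an anti-proliferative gene that also responds to acute stimuli, had the lowest, -1.21 with an adjusted p of 0.159, at 27.6, 15.6 and 11 TPM in D+Q against 42.5, 29.4, 32.4 and 63.2 TPM in vehicle. Trp53inp1 and Dram1 lay below vehicle in every D+Q heart, at -0.35 (adjusted p = 0.149) and -0.36 (adjusted p = 0.172) on the log2 scale. The log2 fold change of Cdkn1a, 1.15, was higher than that of any of the 22 targets tested, and Btg2 differed by about as much in the other direction. In TA the list had a median of 0.01 beside -0.07 over all genes, and 0 were called. Perp, a desmosomal death effector, had the lowest unadjusted p there in the limma fit, 0.0302, at 0.678 to 0.97 TPM in D+Q and 1.13 to 1.45 TPM in vehicle. In heart Perp went the other way, at 75.7 to 80.3 TPM in D+Q and 61.6 to 71.5 TPM in vehicle.

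**Figure D4:**
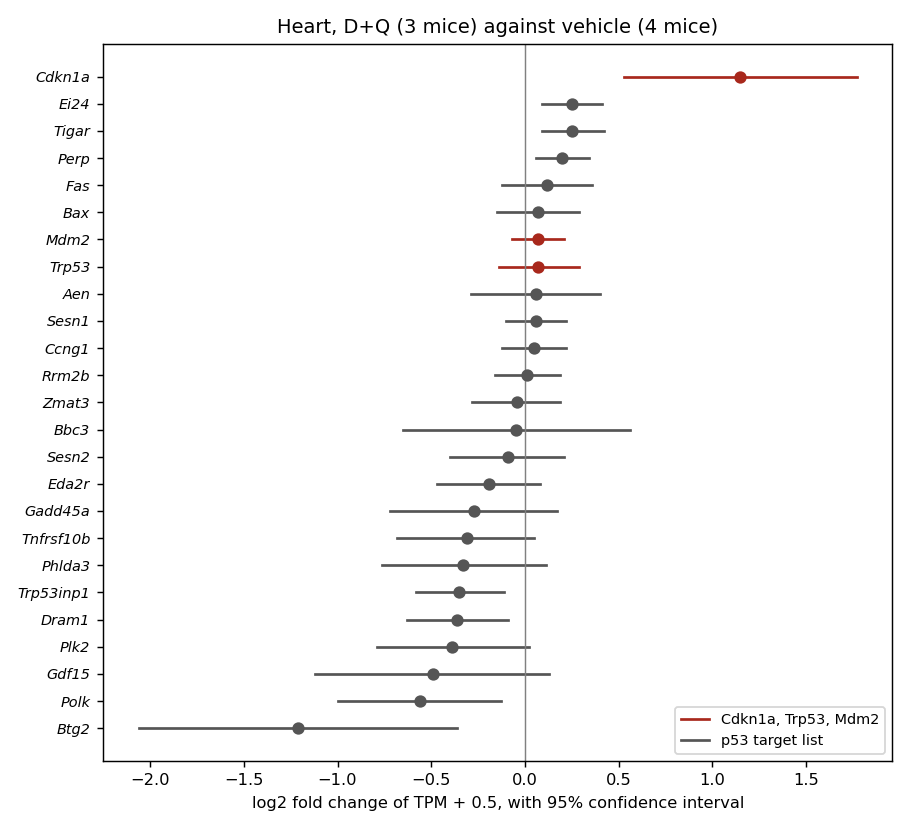
Log2 fold change of TPM + 0.5 between 3 D+Q and 4 vehicle hearts with its 95% confidence interval, for Cdkn1a, Trp53 and Mdm2 (red) and the 22 tested p53 target genes (grey), ordered by size. Cdkn1a is at 1.15, the next genes, Ei24 and Tigar, are at 0.25, and Btg2 is at -1.21; none of the 25 genes was called.

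Genes that act on the members gave a similar picture. Of 13 regulators and relatives of p53, 12 were tested in each tissue and limma called 0, with 1 unadjusted p under 0.05 in each. That gene was Chek1 both times, a checkpoint kinase of replicating cells. It reached 0.5 TPM in 0 D+Q mice and in all 4 vehicle mice of each tissue, so it entered both fits only through the group where it was higher and had to differ, and its values are a description. It was at 0.134 to 0.409 TPM in D+Q TA and 0.557 to 1.05 TPM in vehicle TA. In D+Q hearts it was at 0.178 to 0.286 TPM, against 0.5 to 1.22 TPM in vehicle hearts. Groups that did not overlap made up 1.52% of all genes tested in TA and 15.2% in heart. Among 12 regulators of CDK inhibitors, 0 were called in either tissue. Bmi1, a Polycomb protein that silences Cdkn2a, was at 38.9 to 44.4 TPM in D+Q hearts and 31.5 to 38.4 TPM in vehicle hearts, with a log2 fold change of 0.23 and an adjusted p of 0.119. Foxo4, a forkhead factor of the family that activates Cdkn1b, was at 13.7 to 16.3 TPM against 11.3 to 13.6 TPM, with 0.25 and 0.142.

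The genes on which the inhibitors act were also followed. Of 12 CDK and cyclin genes, 0 were called in TA and 0 of the 11 tested were called in heart. Cdk4, the kinase that INK4 proteins bind, was at 42.4 to 53.2 TPM in D+Q hearts and 48.3 to 62.3 TPM in vehicle hearts. Ccne1, which encodes cyclin E1, was at 0.259, 0.219 and 0.655 TPM in D+Q hearts and 0.788 to 0.894 TPM in vehicle hearts. It reached 0.5 TPM in 1 D+Q heart and all 4 vehicle hearts. It thus entered the heart fit only through the group where it was higher, and its values are a description. The 8 pocket protein and E2F genes had medians of -0.2 in TA and 0 in heart, and 0 were called in either. The 5 proliferation markers summed to 22 to 26.8 TPM in D+Q hearts and 23.6 to 27.4 TPM in vehicle hearts, and none was called. The study also names Il6, Ifng, Tnf, Il1b, Ccl2 and Lmnb1 in connection with senescence. Of these 6 genes, 5 were tested in TA and 4 in heart, and 0 were called. Il6 and Ifng were below 0.5 TPM in every heart. Tnf was at 0.793 to 1.4 TPM in D+Q hearts and 0.644 to 1.74 TPM in vehicle hearts. Il1b was at 0.197 to 1.03 TPM and 0.565 to 2.33 TPM. Lmnb1, a nuclear lamin that is lost in senescence, was at 2.12 to 2.41 TPM in D+Q hearts and 2.13 to 2.61 TPM in vehicle hearts. Ccl2, a secreted chemokine, was at 4.84 to 6.4 TPM in D+Q hearts and 3.62 to 4.09 TPM in vehicle hearts. Its log2 fold change there was 0.48, with an adjusted p of 0.117 in the limma fit. In D+Q TA muscles 1 to 4 Ccl2 was at 143, 7.77, 1.88 and 53.7 TPM. Vehicle TA muscles 1 to 4 held 13.8, 5.4, 53.8 and 2.79 TPM of it. The study lists Ccl2 among the genes raised by D+Q in TA.

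Several other sets of transcripts separated the same heart groups as Cdkn1a. Of 14 clock genes, 8 were called in heart, 1 higher and 7 lower in D+Q, with a median log2 fold change of -0.86. Bmal1, a core clock activator, was at 8.55 to 10.2 TPM in D+Q hearts and at 2.41, 2.03, 3.15 and 1.35 TPM in vehicle hearts 1 to 4. Vehicle heart 3, which had the most Cdkn1a of its group, also had the most Bmal1. Dbp, a clock output gene, was at 8.42 to 15.4 TPM in D+Q hearts and 50.2 to 77.3 TPM in vehicle hearts. For all 4 atrial muscle genes the D+Q hearts lay below the vehicle hearts, 3 of them called. Their summed level was 382 to 427 TPM against 862 to 4260 TPM. Among them Sln, at 0.0408 to 0.416 TPM in D+Q hearts, passed the filter only through the vehicle hearts, at 7.86 to 60 TPM. The 5 red cell genes summed to 26.8 to 122 TPM in D+Q hearts against 346 to 1230 TPM. The 5 cardiomyocyte genes summed to 25500 to 27000 TPM in D+Q hearts against 20500 to 22500 TPM, and 0 were called. The 4 fibroblast genes summed to 386 to 451 TPM against 474 to 695 TPM, most of it Dcn, with Dcn and Col1a1 lower in every D+Q heart and Pdgfra and Dpt overlapping. The summed macrophage and endothelial levels overlapped, although the endothelial receptor gene Kdr was at 42 to 46.3 TPM against 33.3 to 36.5 TPM. The number of genes above 0 also separated the groups, at 22579 to 22818 in D+Q hearts and 24089 to 25378 in vehicle hearts. With the atrial level in place of sex, the log2 fold change of Cdkn1a was 1.96 with an SE of 0.82 and an adjusted p of 0.518. That level correlated with treatment at -0.949 over the 7 hearts, and the median of all genes moved to 0.355 in the same fit, so it is no estimate of a difference free of the atrial level. Of 8 glucocorticoid and fasting response genes 0 were called. Vehicle heart 3 had the most Fkbp5, at 11.3 TPM, and the most Tsc22d3, at 57.2 TPM, of the vehicle hearts. These 2 genes did not separate the groups. D+Q hearts held 8.7 to 10.9 TPM of Fkbp5 and 37.8 to 44.5 TPM of Tsc22d3, within the vehicle range. The part of these sets and of the gene number in the Cdkn1a difference was not tested.

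Tissue was compared next. Cdkn2a entered these fits only through TA, since no heart reached 0.5 TPM, so its difference is given as levels and the calls are counted over the other 8 members. Vehicle hearts were compared with vehicle TA in 1 fit of all 15 mice, where 37.5% of all 17516 genes tested were called. Of the other 8 members 3 were called, 2 lower and 1 higher in heart. Cdkn1a was 5.38 times as high in vehicle TA as in vehicle heart, with a log2 fold change of -2.46 and an adjusted p of 2.76e-06. Every TA muscle, at 49.6 TPM or more, was above every heart, at 26.1 TPM or less. Cdkn2a showed the widest ratio of means, 10.1, with 2.11 to 4.48 TPM in vehicle TA and 0.256 to 0.424 TPM in vehicle heart. Cdkn1c was called lower in vehicle heart, by -0.63 with an adjusted p of 0.00613. Cdkn2c alone was higher in heart, at 3.51 to 5.94 TPM against 1.68 to 3.4 TPM, with a log2 fold change of 0.75 and an adjusted p of 0.00719.

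The other 5 members were not called between vehicle heart and vehicle TA. Cdkn1b, Cdkn2b and Mdm2 passed the adjusted p threshold, at 0.0226, 0.0267 and 0.00124, with log2 fold changes of -0.38, -0.48 and -0.43 that were under the size of 0.5 required for a call. Trp53 was at -0.2 and Cdkn2d at -0.17, with adjusted p-values of 0.316 and 0.577. The median over all genes in this comparison was -0.16, and rescaling by median-of-ratios factors moved it to 0. The calls over all genes were 2524 higher and 4042 lower in heart as deposited, and 3292 higher and 2931 lower under that scaling. Under it Cdkn1c was at -0.45 with an adjusted p of 0.115 and was no longer called, and Cdkn1a and Cdkn2c were still called.

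D+Q heart and D+Q TA gave much the same order. Of the 8 members other than Cdkn2a 4 were called, beside 38.1% of all genes, 3 lower and 1 higher in heart. Cdkn1a was again lower in heart, with a log2 fold change of -1.58 and an adjusted p of 0.000474. Cdkn1c was at -0.86, Cdkn2b at -0.72 and Cdkn2c at 0.94, all with adjusted p-values of 0.00385 or less. Cdkn2a was at 3.16 to 6.06 TPM in D+Q TA and 0.278 to 0.445 TPM in D+Q heart. The difference between the 2 tissue comparisons is the interaction already given, and for no member was it called.

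**Figure D5:**
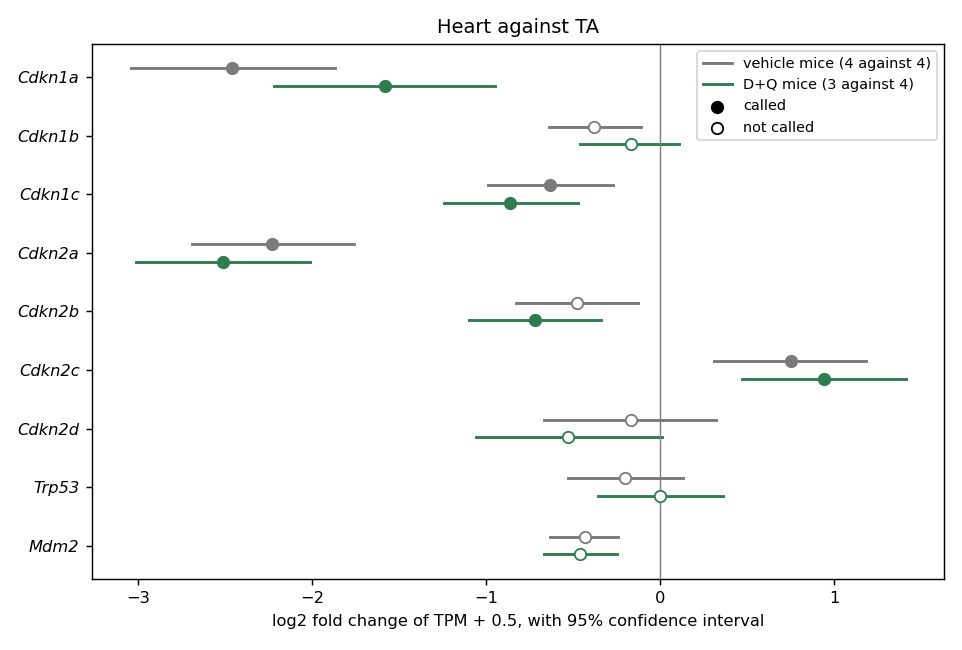
Log2 fold change of TPM + 0.5 between heart and TA with its 95% confidence interval, in vehicle mice (grey) and D+Q mice (green); filled points were called. Cdkn1a, Cdkn1c and Cdkn2a are filled and below 0 in both comparisons, Cdkn2c is filled and above 0 in both, Cdkn2a passed the filter only through TA, and Trp53 has intervals that include 0.

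Partners of the members also differed by tissue. Among the 23 p53 targets tested, 3 were called higher and 8 lower in vehicle heart. Over all genes tested, 14.4% were called higher and 23.1% lower, and the other counts given here stand beside the same shares. The calls among the targets included Gdf15, which reached 0.5 TPM in no TA muscle and was tested only through its heart level. Phlda3, an AKT inhibitor, was at 54 to 106 TPM in vehicle TA and 3.9 to 6.47 TPM in vehicle heart. Eda2r, of the TNF receptor family, was at 10.5 to 15.9 TPM in vehicle TA and 1.85 to 2.51 TPM in vehicle heart. Perp went the other way, at 1.13 to 1.45 TPM in vehicle TA and 61.6 to 71.5 TPM in vehicle heart, and so did Gdf15, a stress-induced cytokine, at 0 to 0.22 TPM and 2.44 to 3.83 TPM. Targets were thus called in both directions. Among the p53 relatives, Trp63 was at 5.92 to 12.9 TPM in vehicle TA and 0.422 to 0.683 TPM in vehicle heart, a log2 fold change of -3.13. The D-type cyclins Ccnd1, Ccnd2 and Ccnd3, activators of CDK4 and CDK6, were called higher in vehicle heart, by 1.44, 1.8 and 0.64. Of the 8 pocket protein and E2F genes, Rb1, E2f2, E2f3 and E2f4 were called lower. Among 6 tested imprinted-region neighbours of Cdkn1c on chromosome 7, 4 were called lower in vehicle heart and 1 higher. H19, a non-coding RNA of the adjacent, separately controlled Igf2 and H19 domain, was at 625 to 2120 TPM in vehicle TA and 16.1 to 23.6 TPM in vehicle heart. The 4 genes of satellite cells and myoblasts, cells in which Cdkn1a and Cdkn1c are known to act, summed to 55.8 to 113 TPM over all TA muscles and at most 0.258 TPM in hearts. Their part in the tissue differences was not tested.

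Genes with the most similar course over the mice were named by the Pearson correlation of log2(TPM + 0.5). For Cdkn1a in heart they were Mmgt1 at 0.995, Ndufa13 at 0.993 and Mrm3 at 0.991, among 13768 genes over 7 mice. In TA the named gene closest to Cdkn1a was Adora2b, an adenosine receptor gene, at 0.989 among 13843 genes over 8 mice. With so few mice and so many genes, the nearest 3 genes of every member reached 0.914 or more, and the values are given as a description.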

How the data were processed

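The table was deposited as TPM for 56980 genes in 15 mice. The authors trimmed reads with Trim Galore 0.6.10 and estimated TPM with Salmon 1.10.3 on GRCm39, summing transcripts per gene. TPM keeps no read depth, so precision comes from the spread between mice, which the labels count as separate samples. Symbols and positions came from GENCODE M39, in which 56236 identifiers were found. The members and all gene lists were chosen with earlier results of these data known. R 4.3.3 and limma 3.58.1 were applied to log2(TPM + 0.5) of genes that reached 0.5 TPM in 3 or more mice of the tissue fitted. The TA fit held 1 surrogate variable and the heart fit labelled sex, after the study's methods, and tissues were compared in 1 fit of 4 groups. p-values were adjusted by Benjamini-Hochberg over all genes tested, and a gene was called when the adjusted p was under 0.05 and the log2 fold change exceeded 0.5 in size. Named genes are the members, and genes of the lists that were called, had a low p in their list or relate to a member. The fits were tested on simulated data. Primers came from the study's supplement and other sequences from GRCm39, matched with Python 3.11.15. Alternatives covered the pseudocount, filter, scaling, covariates, a replicate block and leaving out each mouse.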

Additional observations from a re-analysis of the deposited data

Results flagged for a closer look

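In each group of 4 mice the highest and lowest value of every member was compared with the rest by Dixon's criterion, which chance meets in about 1 in 20 groups, and 2 of the 27 groups examined met it. Cdkn1a in vehicle heart 3, at 18.5 TPM, lay far above the other 3 vehicle hearts, with a gap of 0.948 of the group's range. Cdkn1b in vehicle heart 2, at 21.9 TPM, lay above the others with a gap of 0.853 of the range. Cdkn1b was not called with or without that heart.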

How the results depend on the processing

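No member was called between D+Q and vehicle mice under any setting run, except that leaving out 1 mouse gave 0 to 1 called members in heart, the 1 being Cdkn1a without vehicle heart 3. Under the other settings the heart log2 fold change of Cdkn1a was 0.92 to 1.96 with adjusted p-values of 0.0903 to 0.518. Replicate numbers did not pair the mice, since deviations of same-numbered mice correlated at -0.3 to 0.04 in TA and -0.04 to 0.03 in heart, and a replicate block gave Cdkn1a 1.12 with an adjusted p of 0.142 and changed no call of a member. Small values changed sign. In heart, with sex read from expression, Cdkn1b was -0.02, Cdkn2c -0.04, Cdkn2d -0.04 and Trp53 -0.01, and leaving out 1 mouse gave -0.06 to 0.11, -0.08 to 0.23, -0.09 to 0.1 and -0.06 to 0.13. In TA, Cdkn2c was 0.03 with median-of-ratios scaling and -0.26 to 0.05 without 1 mouse, and Cdkn1c was -0.07 to 0.15 without 1 mouse. For Mdm2 the difference of the D+Q contrast between heart and TA was 0.01 with labelled sex and -0.09 to 0.04 without 1 mouse. The cause was not tested. Between vehicle heart and vehicle TA, Cdkn2b was called with a pseudocount of 0.1, at -0.6, and without TA vehicle 3, TA vehicle 4 or vehicle heart 2, at -0.53, -0.53 and -0.56, and Mdm2 without TA vehicle 4, at -0.5. Between D+Q heart and D+Q TA, Cdkn2d and Mdm2 were called without D+Q TA 3, at -0.72 and -0.52. Over all genes, the 51 heart calls became 0 without a filter, 13 without a variance trend, 4 with the replicate block, 25 with sex read from expression, 0 with the atrial level and 0 to 136 without 1 mouse, the 136 without vehicle heart 3. The 11 interaction calls became 7 with a pseudocount of 1, 5 without a filter, 5 with the block and 5 to 14 without 1 mouse. With 3 or 4 mice per group and no read depth in TPM, small differences could not be resolved.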
